A study of Homo sapiens with 15 samples.

Results

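MAX and 7 of its dimerisation partners were measured by RNA sequencing in K562 cells, a human line from chronic myeloid leukaemia. The 8 genes were chosen by name as MAX, MYCL, MXD1, MXI1, MXD3, MXD4, MNT and MGA. Each symbol matched 1 row of the count tables, so they are 8 of 57500 genes, and all 8 passed the filter on low counts that left 15517 genes for testing. The 15 libraries formed 5 groups of 3: JQ1-FCPF with sgRNA, JQ1-FCPF without sgRNA, JQ1 with sgRNA, JQ1 without sgRNA, and the control. JQ1 blocks the bromodomains of BET proteins, and JQ1-FCPF is the form of it named after the peptide tag on the Cas9 protein that was used. The genotype of the 4 treated groups is given as Cas9FCPF+sgRNA or Cas9FCPF-sgRNA, introduced by transfection, with either compound at 1 µM. The title names dCas9, whereas these labels say Cas9. The control is labelled WT and NT, whereas the design text calls it DMSO. Nothing says that it was transfected, so a comparison with it takes in transfection, Cas9FCPF and compound together. Time is given as 1 h for all 5 groups. No label gives the sgRNA's target, and none says that the 3 replicates of a group were grown apart. The p-values therefore reflect how far these samples differed, which could be technical.

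MAX is a small transcription factor of the basic helix-loop-helix leucine zipper class that binds DNA as a dimer, at the E-box CACGTG. With MYC, MYCL or MYCN it activates genes. MXD1, MXI1, MXD3, MXD4 and MNT compete for MAX and, as dimers with it, repress the same kind of site by bringing in the SIN3-HDAC corepressor. MGA, which also has a T-box DNA-binding domain, uses MAX within the Polycomb-type complex PRC1.6. MXD1, MXD4 and MNT can pair with MLX as well, the MAX-like partner of the Mondo factors.

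The promoters below are those of MYCL and MXD4, the members whose RNA differed between groups, and of MNT, the other member with the E-box. They span 250 bases before to 50 bases after the gene start in RefSeq (build GRCh38.p14), from 5′ to 3′ on the gene's strand. Capitals mark CACGTG, which reads the same on both strands, and MYCL had none.
MYCL, chr1:39901868-39902167, minus strand: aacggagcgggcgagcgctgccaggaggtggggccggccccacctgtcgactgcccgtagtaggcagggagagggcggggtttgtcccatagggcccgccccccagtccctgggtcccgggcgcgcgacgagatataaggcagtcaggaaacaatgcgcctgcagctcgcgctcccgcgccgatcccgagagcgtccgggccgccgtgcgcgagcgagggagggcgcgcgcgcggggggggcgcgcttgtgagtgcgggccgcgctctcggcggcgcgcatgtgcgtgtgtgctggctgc
MXD4, chr4:2262060-2262359, minus strand: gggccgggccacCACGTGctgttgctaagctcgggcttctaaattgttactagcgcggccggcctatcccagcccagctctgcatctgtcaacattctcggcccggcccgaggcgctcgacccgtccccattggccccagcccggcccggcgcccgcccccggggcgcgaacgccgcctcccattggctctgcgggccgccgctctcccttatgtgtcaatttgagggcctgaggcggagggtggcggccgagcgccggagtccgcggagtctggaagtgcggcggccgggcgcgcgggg
MNT, chr17:2401011-2401310, minus strand: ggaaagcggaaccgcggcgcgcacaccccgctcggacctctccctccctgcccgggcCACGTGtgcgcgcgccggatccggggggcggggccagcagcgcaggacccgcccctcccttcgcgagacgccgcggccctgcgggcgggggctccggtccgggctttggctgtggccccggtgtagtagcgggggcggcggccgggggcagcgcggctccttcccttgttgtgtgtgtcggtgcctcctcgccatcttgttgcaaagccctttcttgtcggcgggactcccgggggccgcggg
All 8 members matched, with 13 promoters between them, and the E-box lay 238 bases before the start in MXD4 and 193 bases before it in MNT. Of 35116 RefSeq promoters of this length, 7.26% held the same 6 letters. A match is a description of the letters in this window and not a site of binding.

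Library totals lay between 12625669 and 17544518 counts, and 22970 to 27248 genes were detected. On the first principal component, which held 29% of the variance, replicate 2 of JQ1-FCPF with sgRNA lay at 32.2 and the 6 JQ1 libraries between 16.8 and 24.6. Replicates 1 and 3 of JQ1-FCPF with sgRNA lay at -16.7 and -14.8, JQ1-FCPF without sgRNA at -21.8 to -18.4 and the control at -24.7 to -20.9. On the second component the 3 libraries of JQ1-FCPF with sgRNA lay at -40, -16.4 and -27.2. JQ1-FCPF without sgRNA lay at 4.5 to 10.6 and the control at 5.1 to 14.5, so those 3 libraries stood apart from both groups. JQ1 with sgRNA lay at -12.5, 5 and 4.9 in replicates 1 to 3, and JQ1 without sgRNA at 8.5 to 15. Mitochondrially encoded genes took 7.46% of counts in JQ1 with sgRNA replicate 1 and 2.31 to 5.98% in the other libraries. Results that rest on JQ1-FCPF with sgRNA replicate 2 or JQ1 with sgRNA replicate 1, which stand apart, are given with and without them. All 10 erythroid markers listed for K562 passed the filter. CPM are counts relative to the library total after TMM scaling. Their summed level was 1830 to 2100 CPM with JQ1-FCPF plus sgRNA, 2300 to 2420 with JQ1-FCPF without sgRNA, 1820 to 2470 with JQ1 plus sgRNA, 2390 to 2630 with JQ1 without sgRNA and 2340 to 2530 CPM in the control, and the part of this in the results was not tested. Markers of other cells passed the filter in 1 of 4 cases for B cells, 2 of 5 for T and NK cells, 1 of 4 for epithelial cells and 1 of 5 for fibroblasts. None was at 0 in all 15 libraries, but MS4A1, CD2, KRT5 and COL1A2 stayed at or under 0.216 CPM in each.

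MYC is the gene at which the sgRNA is aimed, as known of the study from outside its labels. It averaged 59.5 ± 1.95 CPM with JQ1-FCPF plus sgRNA, 168 ± 30.7 with JQ1-FCPF without sgRNA, 128 ± 26.8 with JQ1 plus sgRNA, 153 ± 9.54 with JQ1 without sgRNA and 197 ± 8.74 in the control (SD, n = 3 each). With sgRNA under JQ1-FCPF, MYC fell 2.83-fold (adjusted p = 3.67e-07 by the edgeR quasi-likelihood test with Benjamini-Hochberg correction). No member of the MAX group passed the test for an effect of the sgRNA. What passed was higher MYCL in both JQ1 groups, and higher MXD4 with JQ1 plus sgRNA, than in the control. MYCL was also lower with JQ1-FCPF than with JQ1 where both were without sgRNA, and with sgRNA that difference did not pass. In bulk RNA, fewer cells that express a gene and less of its RNA per cell cannot be told apart.

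Levels of different genes were compared per kilobase of exon (CPM per kb), using the summed exon length in the count tables. MAX was the highest member in each group, between 11.1 and 12.6 CPM per kb as group means, and stood above 74.5% of tested genes on this scale. MXD3, MXI1, MXD4, MNT and MXD1 followed with means over all libraries of 4.75, 4.70, 4.59, 3.88 and 3.47 CPM per kb, and the ranges of neighbours in this order overlapped. MXD3 shares 40.4% of its exonic length with other genes and MNT 12.2%, so their places in this order are uncertain. MGA averaged 2.215 and MYCL 1.965 CPM per kb. MYC stood at 19.8 ± 0.65 CPM per kb with JQ1-FCPF plus sgRNA and at 65.6 ± 2.91 in the control (SD, n = 3 each), so that it lay above MAX in both. MYCN, the remaining MYC paralog, had 0 to 2 counts per library and was not tested.

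**Figure D1:**
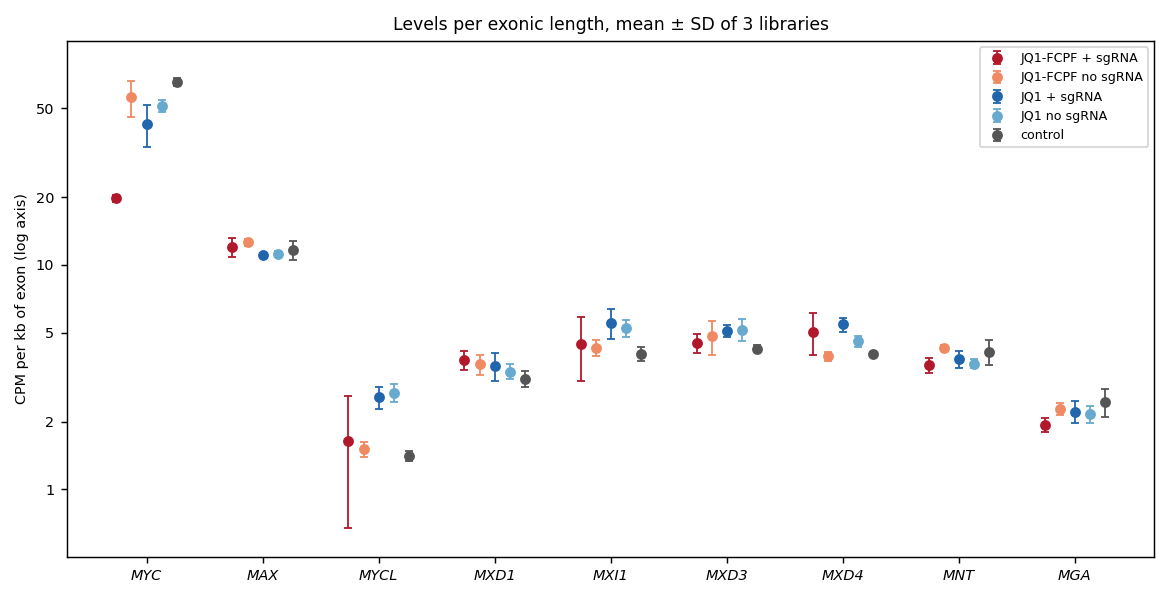
Mean ± SD over 3 libraries of the level per kilobase of exon (log axis) for MYC and the 8 members in each group. MAX lies between 11.1 and 12.6 CPM per kb in every group, while MYC spans 19.8 to 65.6 CPM per kb.

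MYCL, a MYC paralog that also activates genes with MAX, was the member with the largest change. It is encoded at chromosome 1, positions 39895426 to 39902256 (ENSG00000116990, GRCh38, minus strand). With JQ1-FCPF plus sgRNA it stood at 4.52, 13.9 and 6.57 CPM in replicates 1 to 3. With JQ1-FCPF without sgRNA it stood at 8.31, 7.25 and 7.31 CPM. With JQ1 plus sgRNA it stood at 12, 12.3 and 14.7 CPM, with JQ1 without sgRNA at 14.5, 14.2 and 12.3 CPM, and in the control at 7.45, 6.76 and 7.27 CPM. Each of the 6 JQ1 libraries was higher than any library of JQ1-FCPF without sgRNA or of the control. Replicate 2 of JQ1-FCPF with sgRNA lay within the range of the JQ1 libraries, whereas replicates 1 and 3 of that group were the lowest of the 15.

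MYCL rose 1.91-fold with JQ1 without sgRNA against the control (log2 fold change 0.93 ± 0.24 SE, 95% interval 0.44 to 1.43; edgeR adjusted p = 0.0165). With JQ1 plus sgRNA it rose 1.81-fold (log2 fold change 0.86 ± 0.24 SE, edgeR adjusted p = 0.0207). These comparisons share the 3 control libraries. These values rest on 59 to 240 counts per library. The call for JQ1 without sgRNA was lost without control replicate 3 (edgeR adjusted p = 0.0691) and without JQ1 without sgRNA replicate 1 (0.0583) or 2 (0.0605). The call for JQ1 with sgRNA was lost without control replicate 2 (edgeR adjusted p = 0.0734) or 3 (0.0743) and without JQ1 with sgRNA replicate 3 (0.0689). Over 12 alternatives the adjusted p ranged from 1.07e-06 to 0.0691 for the first and from 3.7e-05 to 0.0743 for the second, and the log2 fold change stayed between 0.76 and 1.01 in both.

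JQ1-FCPF and JQ1 were compared at the same dose and time, in 2 pairs of groups. Without sgRNA, MYCL averaged 7.62 ± 0.595 CPM with JQ1-FCPF and 13.7 ± 1.2 CPM with JQ1 (SD, n = 3 each), a 1.79-fold lower level with JQ1-FCPF (log2 fold change -0.84 ± 0.24 SE, edgeR adjusted p = 0.036). The call was lost whenever 1 of the 6 libraries was left out. The edgeR adjusted p was then 0.0605, 0.121 and 0.129 without replicates 1, 2 and 3 of JQ1-FCPF and 0.112, 0.123 and 0.0658 without those of JQ1, in a range from 4.35e-05 to 0.129 over 12 alternatives, while the log2 fold change stayed between -0.91 and -0.80. With sgRNA, MYCL averaged 8.31 ± 4.9 CPM with JQ1-FCPF and 13 ± 1.48 CPM with JQ1 (SD, n = 3 each), and the difference did not pass (log2 fold change -0.65, 95% interval -1.15 to -0.16, edgeR adjusted p = 0.132). Without JQ1-FCPF with sgRNA replicate 2 it was -1.20 and passed (edgeR adjusted p = 3.8e-05), and without both libraries that stand apart it was -1.25 (edgeR adjusted p = 4.27e-06). With no filter on low counts it also passed (-0.65, edgeR adjusted p = 0.00819). Over 12 alternatives that adjusted p ranged from 4.27e-06 to 0.542. Whether the MYCL difference between the compounds depended on the sgRNA was tested as the interaction, which was 0.18 on the log2 scale with a 95% interval of -0.51 to 0.88 (edgeR adjusted p = 0.848). Without JQ1-FCPF with sgRNA replicate 2 it was -0.36, which did not pass either.

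The MXD group encodes the repressive partners, and MXD4 was the member of it that changed. MXD4 is at chromosome 4, positions 2247432 to 2262294 (ENSG00000123933, minus strand). It stood at 30, 43.9 and 32.5 CPM with JQ1-FCPF plus sgRNA, and at 26.1, 28.3 and 28.4 CPM with JQ1-FCPF without sgRNA. It stood at 36, 37.7 and 41.3 CPM with JQ1 plus sgRNA, at 34.3, 30.5 and 32.2 CPM with JQ1 without sgRNA, and at 28.4, 28.9 and 27.6 CPM in the control. Both groups with sgRNA lay wholly above their counterparts without sgRNA and above the control. Neither difference with against without sgRNA passed the test, as given below. Under JQ1-FCPF, 22.6% of all genes did not overlap between the groups with and without sgRNA, and under JQ1 that share is not given. Against the control it was 25.1% for JQ1-FCPF with sgRNA and 34.5% for JQ1 with sgRNA.

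MXD4 rose 1.35-fold with JQ1 plus sgRNA against the control (log2 fold change 0.44 ± 0.12 SE, edgeR adjusted p = 0.0193). The call was lost without control replicate 1, 2 or 3 (edgeR adjusted p = 0.0528, 0.0528 and 0.0797) and without JQ1 with sgRNA replicate 3 (0.0728), in a range from 0.000429 to 0.0797 over 12 alternatives. With JQ1 without sgRNA the log2 fold change was 0.19 (95% interval -0.06 to 0.44, edgeR adjusted p = 0.309). The effect of the sgRNA on MXD4 was 0.36 under JQ1-FCPF (95% interval 0.11 to 0.61, edgeR adjusted p = 0.0765) and 0.25 under JQ1 (95% interval 0 to 0.49, edgeR adjusted p = 0.603), and neither passed. Under JQ1-FCPF it passed without JQ1-FCPF with sgRNA replicate 1, at 0.47 (edgeR adjusted p = 0.0332), in a range from 0.0332 to 0.325 over 12 alternatives. Without replicate 2 of that group, the library at 43.9 CPM, the same effect was 0.19 (edgeR adjusted p = 0.325). JQ1-FCPF with sgRNA against the control gave 0.32 (edgeR adjusted p = 0.106), which passed without replicate 1 of the treated group, at 0.43 (edgeR adjusted p = 0.0436). Without replicate 2 of that group it was 0.16 (edgeR adjusted p = 0.426), and without both libraries that stand apart it was also 0.16, in a range from 0.0436 to 0.426 over 12 alternatives. Against JQ1 with sgRNA, JQ1-FCPF with sgRNA passed for MXD4 without both of those libraries (-0.32, edgeR adjusted p = 0.026).

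MXI1, a repressive partner also known as MXD2, is at chromosome 10, positions 110207605 to 110287365 (ENSG00000119950). It stood at 15.2, 27.7 and 18.4 CPM with JQ1-FCPF plus sgRNA, at 21.4, 19.5 and 18.2 with JQ1-FCPF without sgRNA, at 29, 26 and 21.4 with JQ1 plus sgRNA, at 21.9, 26.2 and 24.1 with JQ1 without sgRNA, and at 17, 19.3 and 19.3 in the control. All 6 JQ1 libraries lay above the control, as for MYCL, and replicate 2 of JQ1-FCPF with sgRNA again lay among them. The log2 fold change was 0.46 with JQ1 plus sgRNA (95% interval 0.12 to 0.79, edgeR adjusted p = 0.0612) and 0.38 with JQ1 without sgRNA (95% interval 0.04 to 0.72, edgeR adjusted p = 0.134). The difference with JQ1 plus sgRNA passed without replicate 3 of that group (0.57, edgeR adjusted p = 0.042) and without both libraries that stand apart (0.35, edgeR adjusted p = 0.0298), and that with JQ1 without sgRNA passed without both of them (0.38, edgeR adjusted p = 0.00785). With only the groups compared in the fit both passed (edgeR adjusted p = 0.0334 with sgRNA and 0.00357 without it), as did the first with no filter (0.0273). Over 12 alternatives the adjusted p ranged from 0.0273 to 0.178 with sgRNA and from 0.00357 to 0.342 without it. With sgRNA, MXI1 was -0.32 for JQ1-FCPF against JQ1 and did not pass (edgeR adjusted p = 0.3). Without JQ1-FCPF with sgRNA replicate 2 that value was -0.59 and passed (edgeR adjusted p = 0.00561), as did the value without both libraries that stand apart (-0.47, 0.0111), in a range from 0.00561 to 0.791 over 12 alternatives.

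**Figure D2:**
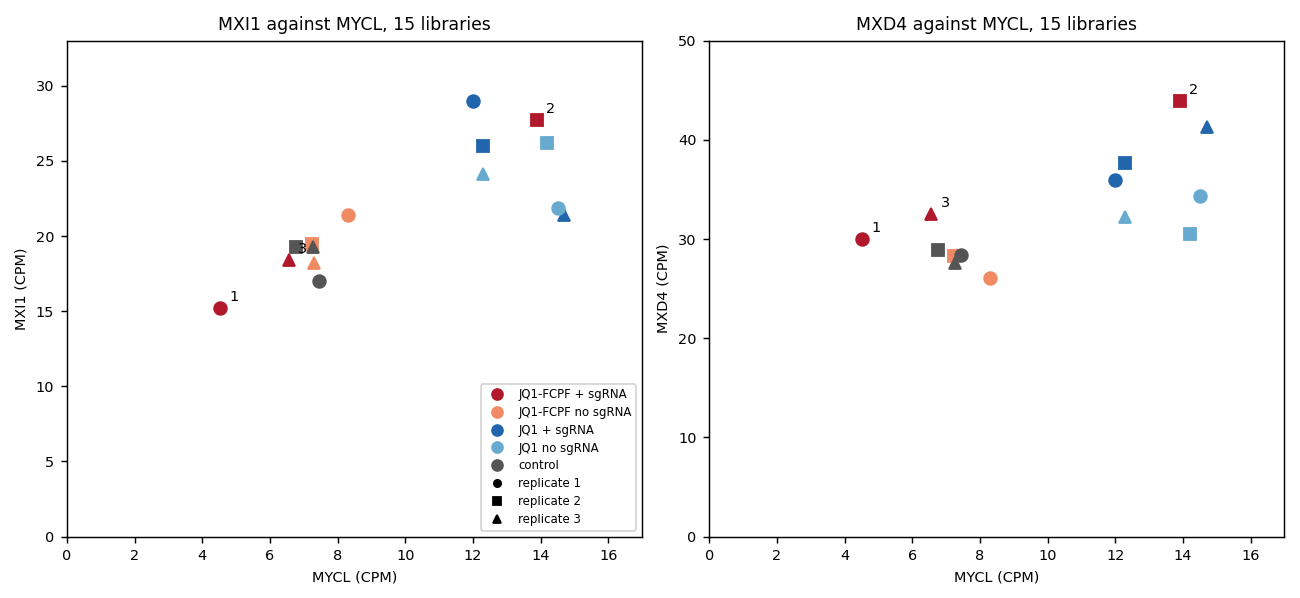
MXI1 (left) and MXD4 (right) against MYCL in CPM, 1 point per library, coloured by group and shaped by replicate, with the replicates of JQ1-FCPF with sgRNA numbered. Replicate 2 of that group, at 13.9 CPM of MYCL, lies among the JQ1 libraries for MYCL and MXI1 and above them for MXD4 at 43.9 CPM, while replicates 1 and 3 lie at 4.52 and 6.57 CPM of MYCL.

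MXD3, a repressive partner linked to dividing cells, is at chromosome 5, positions 177301461 to 177312757 (ENSG00000213347). It averaged 23.1 ± 2.28 CPM with JQ1-FCPF plus sgRNA, 24.7 ± 4.36 with JQ1-FCPF without sgRNA, 26.2 ± 1.65 with JQ1 plus sgRNA, 26.6 ± 3 with JQ1 without sgRNA and 21.8 ± 0.725 in the control (SD, n = 3 each). Both JQ1 groups lay wholly above the control, with log2 fold changes of 0.27 and 0.28 with and without sgRNA that did not pass (edgeR adjusted p = 0.165 and 0.151). With only the groups compared in the fit, the one without sgRNA passed (0.29, edgeR adjusted p = 0.022), the lowest of 12 alternatives, whose highest was 0.408. Of the exonic length of MXD3, 40.4% is shared with RAB24 and PRELID1, so its counts are uncertain. For the other members the share was 0 to 12.2%, and the antisense gene MYCL-AS1 had 0 to 4 counts per library.

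MXD1, the founding member of the repressive group, is at chromosome 2, positions 69897688 to 69942945 (ENSG00000059728). It averaged 24 ± 2.32 CPM with JQ1-FCPF plus sgRNA, 22.8 ± 2.36 with JQ1-FCPF without sgRNA, 22.4 ± 3.21 with JQ1 plus sgRNA, 21.3 ± 1.65 with JQ1 without sgRNA and 19.7 ± 1.6 in the control (SD, n = 3 each). Neighbouring groups overlapped. Its largest log2 fold change, 0.28 for JQ1-FCPF with sgRNA against the control, did not pass (95% interval 0.02 to 0.54, edgeR adjusted p = 0.2).

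MNT, a repressor that is made in most cells and can pair with MAX or MLX, is at chromosome 17, positions 2384060 to 2401118 (ENSG00000070444). It stood at 29, 33.6 and 31.1 CPM with JQ1-FCPF plus sgRNA, against 37.3, 36 and 38.2 CPM with JQ1-FCPF without sgRNA. The other groups averaged 33.3 ± 2.92 CPM with JQ1 plus sgRNA, 31.7 ± 1.43 with JQ1 without sgRNA and 35.8 ± 4.49 in the control (SD, n = 3 each). The libraries with and without sgRNA did not overlap under JQ1-FCPF, yet the log2 fold change of -0.25 did not pass (95% interval -0.47 to -0.03, edgeR adjusted p = 0.177). Its interaction of compound and sgRNA was -0.32 (95% interval -0.64 to -0.01, edgeR adjusted p = 0.352).

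MGA is at chromosome 15, positions 41621224 to 41773081 (ENSG00000174197). It stood at 34.6, 36.7 and 31.4 CPM with JQ1-FCPF plus sgRNA, at 43.3, 39.2 and 38.9 CPM with JQ1-FCPF without sgRNA, and at 43, 37 and 49.5 CPM in the control. The JQ1 groups averaged 39.2 ± 4.35 CPM with sgRNA and 38.4 ± 3.35 CPM without it (SD, n = 3 each). All libraries of JQ1-FCPF with sgRNA lay below those of JQ1-FCPF without sgRNA and of the control, and all 8 pairwise log2 fold changes lay between -0.34 and 0.08. The lowest, against the control, did not pass (95% interval -0.58 to -0.09, edgeR adjusted p = 0.0854). It passed without control replicate 2, at -0.43 (edgeR adjusted p = 0.0485), and without both libraries that stand apart, at -0.38 (edgeR adjusted p = 0.0246), in a range from 0.0246 to 0.38 over 12 alternatives.

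MAX itself, at chromosome 14, positions 65006174 to 65102695 (ENSG00000125952), averaged 53.1 ± 5.24 CPM with JQ1-FCPF plus sgRNA, 55.6 ± 1.87 with JQ1-FCPF without sgRNA, 49.4 ± 0.462 with JQ1 plus sgRNA, 49.8 ± 1.64 with JQ1 without sgRNA and 51.8 ± 5.07 in the control (SD, n = 3 each). Its 8 pairwise log2 fold changes lay between -0.07 and 0.16, and their 95% intervals reached from -0.27 to 0.36. The libraries of JQ1-FCPF without sgRNA lay wholly above those of JQ1 without sgRNA, a difference that did not pass (log2 fold change 0.16, edgeR adjusted p = 0.314).

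**Figure D3:**
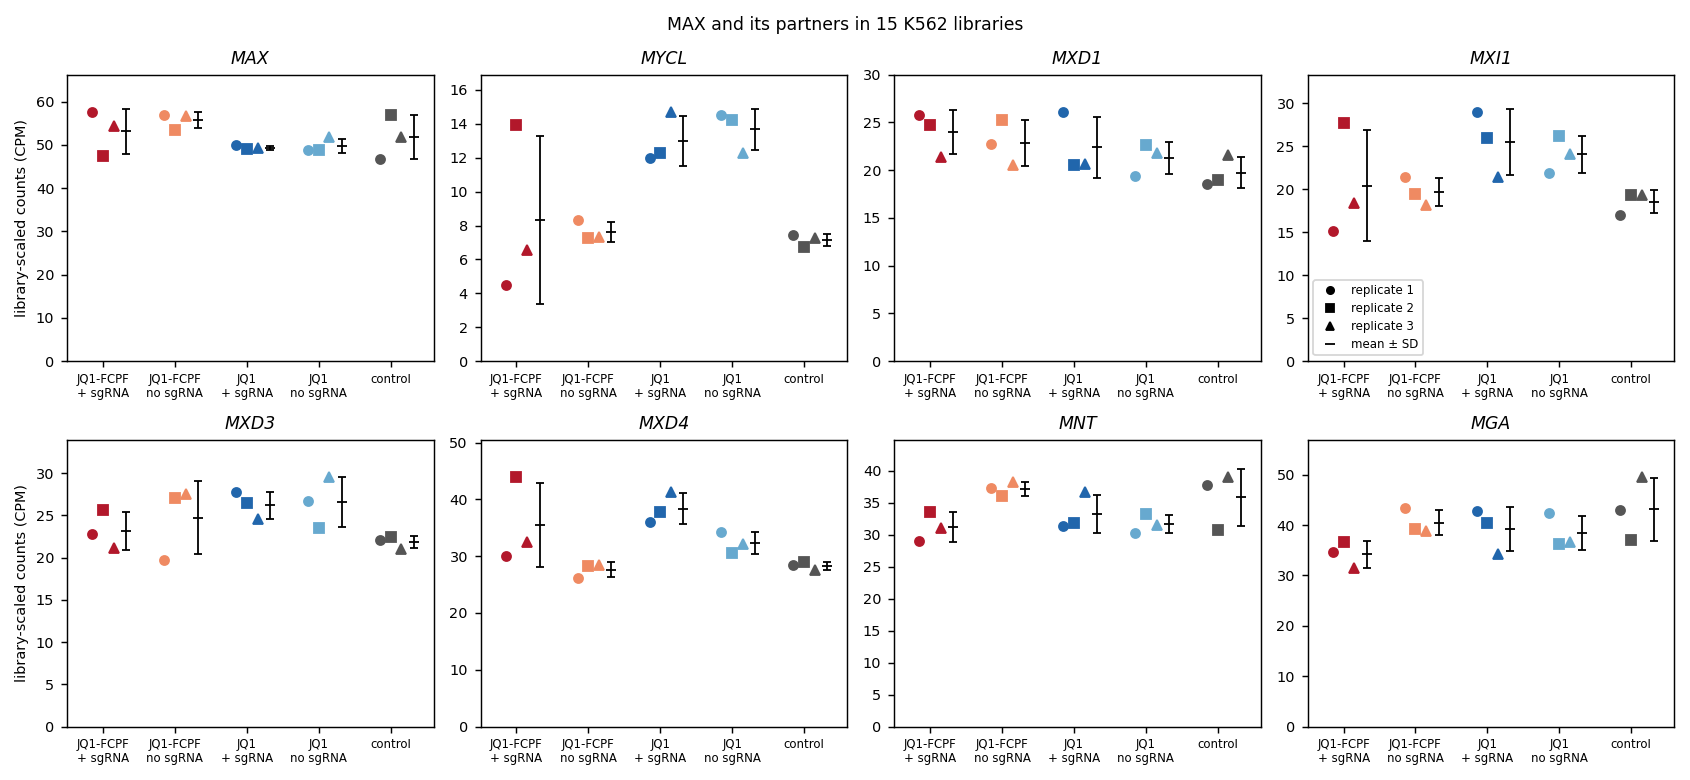
Library-scaled counts (CPM) of the 8 members in each of 15 libraries, with the mean ± SD of 3 libraries beside the points; groups run from JQ1-FCPF with sgRNA on the left to the control on the right. MYCL lies at 12 to 14.7 CPM in the 6 JQ1 libraries and at 6.76 to 7.45 CPM in the control.

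Counted over the 8 members, 0 changed with sgRNA under JQ1-FCPF by edgeR, where 6.25% of all tested genes did. There 2 members had an unadjusted p under 0.05, as had 21.8% of all genes, DESeq2 called 0, and 3 members had groups that did not overlap, where 22.6% of all genes had. Under JQ1 the sgRNA changed 0 members by edgeR and by DESeq2, beside 0.0129% of all genes, and 0 had an unadjusted p under 0.05, beside 8.15%. In the interaction 0 passed by either tool, beside 0.786% of all genes, and 1 had an unadjusted p under 0.05, beside 13.9%. Between the compounds with sgRNA, 0 members passed by edgeR and by DESeq2, beside 2.95% of all genes, and 1 had an unadjusted p under 0.05, beside 18.3%. Between the compounds without sgRNA, 1 passed, beside 7.8% of all genes. There 5 of 8 members did not overlap, where 36.2% of all genes did not.

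Against the control, JQ1 with sgRNA raised 2 members and JQ1 without sgRNA raised 1, beside 14.2% and 12.3% of all genes called in either direction and 7.21% and 6.07% called higher. MYCL, MXI1, MXD3 and MXD4 did not overlap with the control in either JQ1 group, 4 of 8 members where 34.5% and 41% of all genes did not overlap. JQ1-FCPF with sgRNA changed 0 members by edgeR and by DESeq2, beside 7.21% of all genes. There 3 members had an unadjusted p under 0.05, beside 21.7% of all genes, and 2 did not overlap, beside 25.1%. JQ1-FCPF without sgRNA changed 0 by edgeR and by DESeq2, beside 0.00644% of all genes, with 0 at an unadjusted p under 0.05, beside 1.84%. The median log2 fold change of the 8 members was 0.22 with JQ1 plus sgRNA and 0.15 with JQ1 without sgRNA, while the medians over all tested genes were 0.01 and 0.

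**Figure D4:**
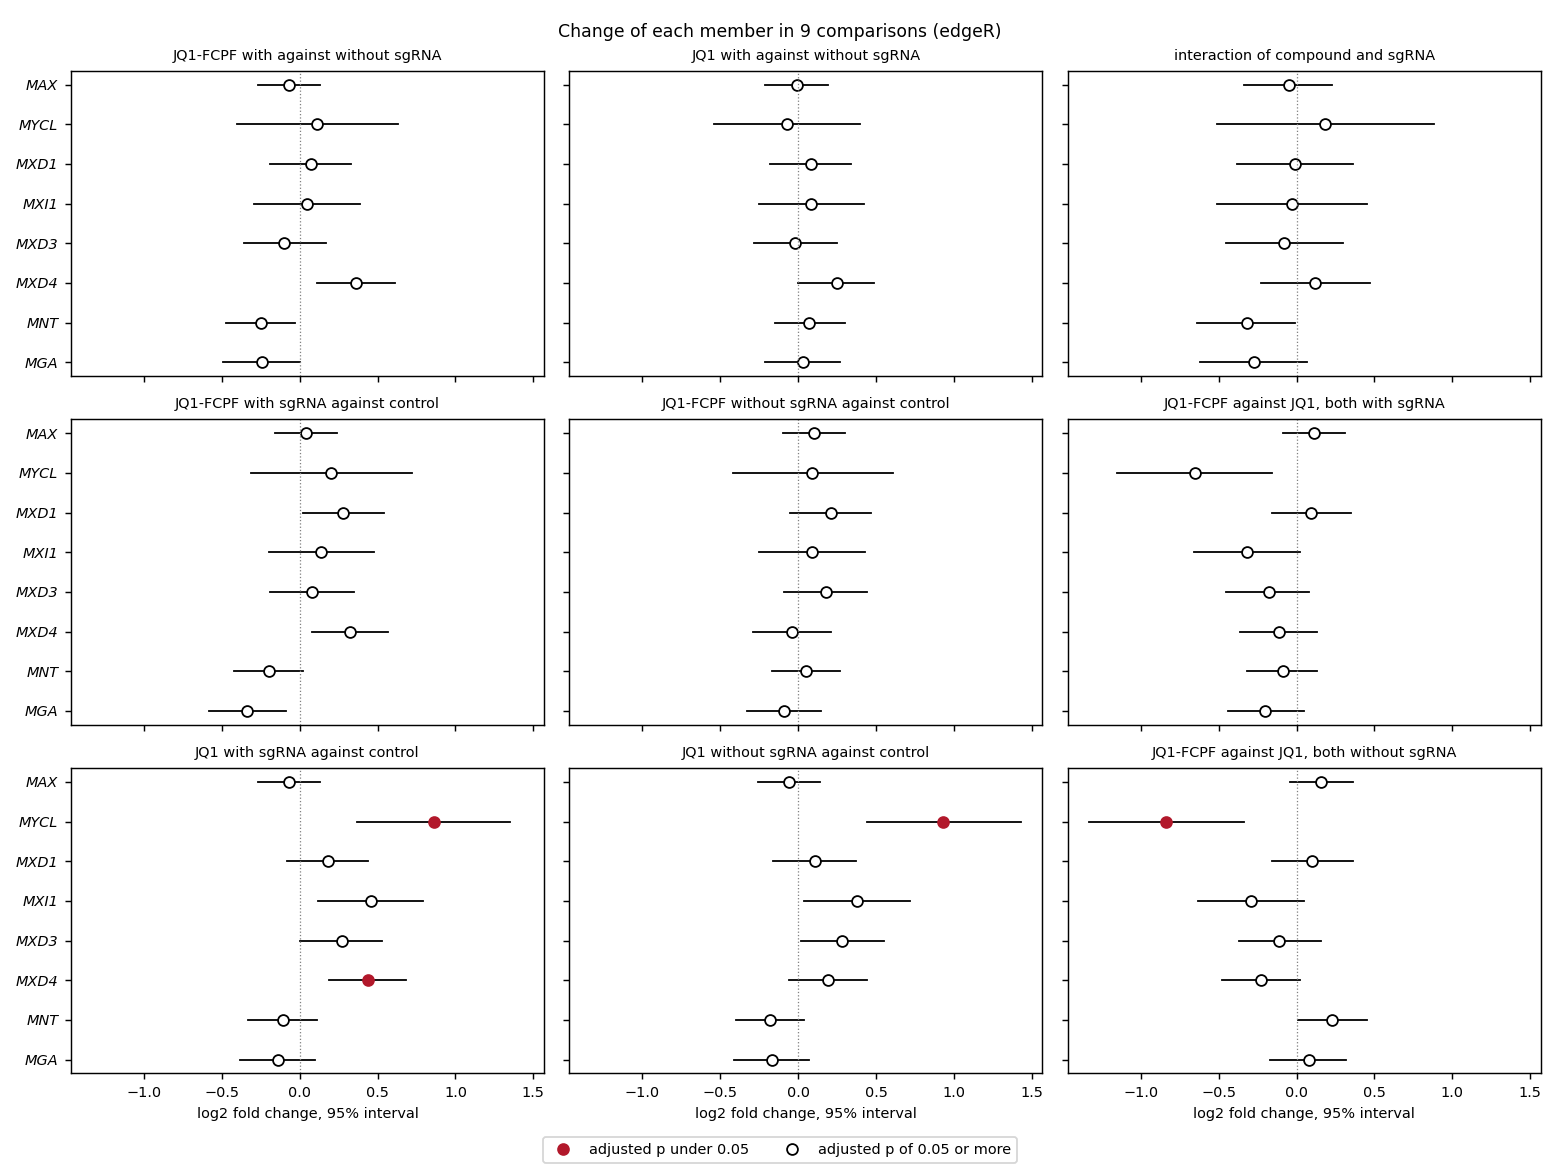
Log2 fold change with its 95% interval for the 8 members in 9 comparisons, filled where the edgeR adjusted p was under 0.05. The 4 filled points are MYCL in 3 comparisons and MXD4 in JQ1 with sgRNA against the control.

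The 3 named genes with mean CPM of at least 5 whose log2 CPM followed MYCL most closely over the 15 libraries were FAM114A1, GRAP2 and NLRX1, with Pearson r of 0.97, 0.96 and 0.96 among 10293 candidates. GRAP2, an adaptor of signalling in blood cells, averaged 32 ± 11 CPM with JQ1-FCPF plus sgRNA, 29.9 ± 1.73 with JQ1-FCPF without sgRNA, 41 ± 2.71 with JQ1 plus sgRNA, 40.7 ± 1.39 with JQ1 without sgRNA and 29.4 ± 0.734 in the control (SD, n = 3 each). It stood at 44.8 CPM in replicate 2 of JQ1-FCPF with sgRNA. MXD4 was followed most closely by MVD, an enzyme of cholesterol synthesis (r = 0.95), PFKM, a phosphofructokinase of glycolysis (r = 0.93), and LONP1, a mitochondrial protease (r = 0.92). Among the members themselves, MYCL and MXI1 had r = 0.84, MYCL and MXD4 r = 0.68, and MAX and MYCL r = -0.74. All these points share libraries and depth, and the separation of the JQ1 libraries from the others enters each r.

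The rest of the network was read from 6 lists of its other genes. MLX, the MAX-like partner, averaged 56.8 ± 1.66 CPM with JQ1-FCPF plus sgRNA, against 71.9 ± 3.34 CPM with JQ1-FCPF without sgRNA, 63.6 ± 3.27 CPM with JQ1 plus sgRNA, 65.6 ± 2.06 CPM with JQ1 without sgRNA and 72.5 ± 1.53 CPM in the control (SD, n = 3 each). Both JQ1 groups lay wholly below the control, as 34.5% and 41% of all genes did not overlap with it with and without sgRNA. Neither of these MLX differences passed (edgeR adjusted p = 0.131 and 0.27). With JQ1-FCPF plus sgRNA, MLX fell 1.27-fold against JQ1-FCPF without sgRNA and 1.28-fold against the control (edgeR adjusted p = 0.0186 and 0.0122). The first call was lost without JQ1-FCPF with sgRNA replicate 1 (edgeR adjusted p = 0.0666) or JQ1-FCPF without sgRNA replicate 2 (0.0537), and the second without JQ1-FCPF with sgRNA replicate 1 (0.0524) or control replicate 3 (0.0583). With no filter both were lost (edgeR adjusted p = 0.106 and 0.0593), and the first also with only the groups compared (0.108).

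MLXIPL, a glucose-responsive Mondo factor also called ChREBP, averaged 18.3 ± 5.83 CPM with JQ1-FCPF plus sgRNA, 21.1 ± 3.7 with JQ1 plus sgRNA, 18.2 ± 2.84 with JQ1 without sgRNA and 9.5 ± 1.79 CPM in the control (SD, n = 3 each). It rose 1.91-fold, 2.22-fold and 1.91-fold in these 3 comparisons, which share the control (edgeR adjusted p = 0.0081, 0.00197 and 0.00831). The first call was lost without control replicate 2 (edgeR adjusted p = 0.0533) and the last without control replicate 3 (0.0501). With JQ1-FCPF without sgRNA, MLXIPL averaged 11.9 ± 2.7 CPM (SD, n = 3) and was not called against the control. Its log2 fold change with sgRNA under JQ1-FCPF, 0.62, did not pass (edgeR adjusted p = 0.0801). MLXIP, the other Mondo factor, was not called in any of the 9 comparisons.

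Of 18 genes of the SIN3-HDAC complex, the corepressor of the MXD proteins and MNT, 1 was higher and 3 lower with JQ1 plus sgRNA than in the control, and 1 higher and 1 lower with JQ1 without sgRNA, beside 14.2% and 12.3% of all genes called in either direction. ARID4A, a subunit that binds the retinoblastoma protein, rose 1.43-fold and 1.35-fold (edgeR adjusted p = 0.0117 and 0.0329). HDAC1, a deacetylase, fell 1.23-fold with JQ1 without sgRNA (edgeR adjusted p = 0.028). The call of ARID4A with sgRNA was lost without control replicate 2 (edgeR adjusted p = 0.0625). Both calls without sgRNA were lost whenever 1 of the 6 libraries was left out, with edgeR adjusted p of 0.0501 to 0.133 for ARID4A and 0.0661 to 0.0998 for HDAC1. With no filter HDAC1 also lost its call (0.075). The list medians were -0.08 and -0.06 on the log2 scale, beside 0.01 and 0 for all genes. With sgRNA under JQ1-FCPF, edgeR called 0 of the 18, beside 6.25% of all genes. There 2 had an unadjusted p under 0.05, beside 21.8% of all genes.

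Of 14 genes of PRC1.6, the complex that holds MGA, 4 were lower and 0 higher than in the control in each JQ1 group, beside 7.04% of all genes called lower with sgRNA and 6.23% without it. L3MBTL2, a subunit with malignant brain tumour repeats, fell 1.42-fold with sgRNA and 1.39-fold without it (edgeR adjusted p = 0.0084 and 0.0151). WDR5, which also binds MYC, fell 1.21-fold with sgRNA and 1.32-fold without it (edgeR adjusted p = 0.0455 and 0.00918). The call of L3MBTL2 without sgRNA was lost without control replicate 3 (edgeR adjusted p = 0.07) and without JQ1 without sgRNA replicate 2 (0.0614) or 3 (0.0742). That of WDR5 with sgRNA was lost whenever 1 of the 6 libraries was left out (edgeR adjusted p = 0.0725 to 0.138), with no filter (0.118), with only the groups compared (0.055) and with the replicate block (0.0588). The list medians were -0.11 and -0.08 on the log2 scale. With sgRNA under JQ1-FCPF, 1 of the 14 was called, CBX1, a heterochromatin protein, which rose 1.29-fold (edgeR adjusted p = 0.0461). That call was lost without JQ1-FCPF with sgRNA replicate 1 or 2 (edgeR adjusted p = 0.0987 and 0.115) and without JQ1-FCPF without sgRNA replicate 2 or 3 (0.22 and 0.197). It was also lost with no filter (edgeR adjusted p = 0.0569), with only the groups compared (0.16) and with the replicate block (0.0534).

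Of 16 genes for cofactors and turnover of MYC, 1 was lower and 0 higher in each JQ1 group than in the control, and likewise with sgRNA under JQ1-FCPF. Of all genes, 7.04% were called lower with JQ1 plus sgRNA, 6.23% with JQ1 without sgRNA and 4.2% with sgRNA under JQ1-FCPF. In both JQ1 groups the gene called was WDR5, which was counted among the PRC1.6 genes above as well. With sgRNA under JQ1-FCPF it was AURKA, a mitotic kinase that stabilises MYC family proteins, which fell 1.39-fold (edgeR adjusted p = 0.0244). The call was lost without JQ1-FCPF with sgRNA replicate 1 or 3 (edgeR adjusted p = 0.113 and 0.0691) and without JQ1-FCPF without sgRNA replicate 1 or 3 (0.058 and 0.085), and with only the groups compared (0.12).

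Of 22 genes known as E-box targets of MYC and MAX, 6 were lower and 0 higher than in the control in each JQ1 group, beside 7.04% and 6.23% of all genes called lower with and without sgRNA. The list medians were -0.29 in both. NOP56, a core protein of small nucleolar particles, fell 1.6-fold with sgRNA and 1.65-fold without it (edgeR adjusted p = 0.00784 and 0.00639). PPRC1, a coactivator of nuclear respiratory genes, fell 1.49-fold with sgRNA and 1.33-fold without it (edgeR adjusted p = 0.00152 and 0.0116). The call of PPRC1 without sgRNA was lost without control replicate 3 (edgeR adjusted p = 0.0853) or JQ1 without sgRNA replicate 3 (0.0533). With sgRNA under JQ1-FCPF, 2 of the 22 fell and 0 rose, beside 4.2% of all genes called lower, with a list median of -0.03. They were PPRC1, by 1.53-fold, and PPAN, a ribosome assembly factor, by 1.95-fold (edgeR adjusted p = 0.00043 and 0.000622). Between the compounds without sgRNA, 4 of the 22 were higher with JQ1-FCPF than with JQ1 and 0 lower, beside 4.11% of all genes called higher. EIF4A1, an RNA helicase of translation, was 1.90-fold higher with JQ1-FCPF there (edgeR adjusted p = 0.00491).

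In 2 comparisons edgeR and DESeq2 called 0 genes of all 6 lists. They were JQ1 with against without sgRNA and JQ1-FCPF without sgRNA against the control, where edgeR called 0.0129% and 0.00644% of all genes. In the first, 0 to 2 genes per list had an unadjusted p under 0.05, beside 8.15% of all genes. In the second, 0 to 1 per list had, beside 1.84%.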

How the data were processed

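Each library came as 1 file of raw counts deposited by the authors, with gene, exon positions and summed exon length (used for levels per kb), per the file headers. Not given in the sources used here were the aligner, counting program, build, annotation and use of strand. Of 56898 identifiers found in GENCODE release 29 (GRCh38), 96.1% had the same coordinates, including all 8 members, so GRCh38 positions are given.

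Counts were fitted with edgeR 4.0.16 in R 4.3.3 (filterByExpr, TMM scaling, 1 mean per group over all 15 libraries, quasi-likelihood test), with Benjamini-Hochberg adjustment over 15517 genes and a threshold of 0.05. Correlations used log2 CPM with a prior count of 2. The fit was also run on simulated counts, with known changes in JQ1 without sgRNA alone. They held no library that stands apart, so that run cannot show how the fit handles such libraries. Alternatives were DESeq2 1.42.0, its size factors, no filter, a fit to just the groups compared, a block for the letter in the title, and fits that left out libraries. Replicates differed by more than sampling noise, with chi-square per degree of freedom from 2.76 to 43.2.

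The members, the lists (6 for the network; markers of K562, B, T and NK, epithelial and fibroblast cells) and the naming rule were chosen with earlier results of these data known. Named are the members, MYC, the list genes with the smallest p among those called (up to 4 per list for the sgRNA under JQ1-FCPF, up to 2 elsewhere), and the 3 genes most like each called member. BRMS1, ING1, TFDP1, HBE1 and TFRC also met this rule but are not described in the results.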

Additional observations from a re-analysis of the deposited data

Results flagged for a closer look

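The effect of the sgRNA differed between the compounds, by the test of the interaction itself, for 3 of the named genes, none of them one of the 8 members. MYC had an interaction of -1.24 on the log2 scale (edgeR adjusted p = 0.00187), which passed in all 18 alternatives.

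Among the erythroid markers, LMO2 had -0.64 and NFE2 -0.98 (edgeR adjusted p = 0.0255 and 0.0276). LMO2 averaged 40.4 CPM with JQ1-FCPF and sgRNA, against 67.9 CPM with JQ1-FCPF without sgRNA, and 55.3 CPM with JQ1 and sgRNA, against 59.6 CPM with JQ1 without sgRNA. NFE2 averaged 133 against 293 CPM under JQ1-FCPF and 271 against 303 CPM under JQ1, with sgRNA and without it. Leaving out JQ1-FCPF with sgRNA replicate 2, JQ1-FCPF without sgRNA replicate 1 or JQ1 with sgRNA replicate 1 kept both calls, and leaving out JQ1-FCPF without sgRNA replicate 2 kept that of LMO2. Each other treated library, left out, ended the call (edgeR adjusted p = 0.0523 to 0.0981 for LMO2 and 0.0502 to 0.0907 for NFE2). With only the groups compared NFE2 also lost its call (0.0605).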

How the results depend on the processing

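Over 912 alternative values of 72 member results, 830 kept their direction and side of the threshold, 16 lost the call, 17 gained it and 49 changed sign, all 49 not called either way; the cause was not tested. In the main fit 76 network genes were tested. By DESeq2, network genes called were 2 in the interaction, beside 267 of all genes, and 6 between the compounds with sgRNA. With no filter they were 2 and 5, beside 316 and 822 of all genes. There 1 member was called between the compounds with sgRNA. With only the groups compared, network genes called were 3 for the sgRNA under JQ1-FCPF, and 1 and 22 between the compounds with and without sgRNA. They were 25 for JQ1 without sgRNA against the control, where 3 members were called. Of all genes, 351, 11, 2959 and 4521 were called in that order. Without the 2 libraries that stand apart, an alternative chosen after seeing the data, network genes called were 4 in the interaction, 21 and 24 between the compounds with and without sgRNA, and against the control 12 for JQ1-FCPF with sgRNA, 25 for JQ1 with sgRNA and 24 for JQ1 without it. Members called were 3 between the compounds with sgRNA. Against the control they were 1 for JQ1-FCPF with sgRNA and 2 for JQ1 without sgRNA. In this setting all genes called were 511 in the interaction, and 3176 and 3554 between the compounds with and without sgRNA. Against the control all genes called were 1745 for JQ1-FCPF with sgRNA, 3582 for JQ1 with sgRNA and 4234 for JQ1 without it. The main fit tested 15517 genes.

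Sign changes without those 2 libraries were MAX 0.01, MYCL -0.44 and MXI1 -0.22 for the sgRNA under JQ1-FCPF, MXD1 -0.06, MXI1 -0.03 and MGA -0.05 for it under JQ1, MAX 0.04, MYCL -0.41, MXD1 0.1 and MXD4 -0.09 in the interaction, and MYCL -0.34 and MXI1 -0.12 for JQ1-FCPF with sgRNA against the control. With DESeq2 size factors the MXD1 interaction was 0.

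Leaving out 1 library at a time, members called ranged over 0 to 2 for JQ1 with sgRNA against the control, 0 to 1 for JQ1 without sgRNA against the control, 0 to 1 for JQ1-FCPF with sgRNA against the control, 0 to 1 for the sgRNA under JQ1-FCPF, 0 to 2 between the compounds with sgRNA and 0 to 0 without it. Network genes called ranged over 6 to 13, 3 to 9, 4 to 6, 3 to 6, 1 to 22 and 1 to 5 in the same order, and 1 to 3 in the interaction. The ranges of all genes called in these fits are given in the next paragraph. Sign changes then occurred, with these ranges, for the sgRNA under JQ1-FCPF in MAX (-0.13 to 0.01), MYCL (-0.44 to 0.4), MXD1 (0 to 0.14) and MXI1 (-0.22 to 0.22). For the sgRNA under JQ1 they occurred in MAX (-0.03 to 0.01), MXD1 (-0.06 to 0.13), MXI1 (-0.03 to 0.19), MXD3 (-0.1 to 0.06), MNT (0 to 0.11) and MGA (-0.05 to 0.11). In the interaction they occurred in MAX (-0.11 to 0.03), MYCL (-0.36 to 0.47), MXD1 (-0.08 to 0.12), MXI1 (-0.3 to 0.14), MXD3 (-0.22 to 0) and MXD4 (-0.05 to 0.22). Between the compounds without sgRNA it was MXD3 (-0.19 to 0.04). Against the control they were MAX (-0.03 to 0.12), MYCL (-0.34 to 0.49) and MXI1 (-0.12 to 0.31) for JQ1-FCPF with sgRNA, MXD4 (-0.06 to 0.01), MNT (-0.05 to 0.12) and MGA (-0.19 to 0.02) for JQ1-FCPF without sgRNA, and MAX (-0.13 to 0.01) for JQ1 without sgRNA.

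The labels do not say whether the replicate letters of the titles pair the samples. Correlations of same-letter deviations from the group means ran between -0.24 and 0.31, and 4 of 30 exceeded 0.1. These do not settle the pairing, because each mean rests on 3 libraries. With the letter as a block, no count of members called changed, and MYCL had 0.86 and 0.92 against the control under JQ1 with and without sgRNA, -0.84 between the compounds without sgRNA, and MXD4 had 0.44 (edgeR adjusted p = 0.0277, 0.0224, 0.0452 and 0.0244). Over the whole table, genes called were 970 for the sgRNA under JQ1-FCPF, 458 and 1210 between the compounds with and without sgRNA, and 1908 for JQ1 without sgRNA against the control. In that order they were 351, 11, 2959 and 4521 with only the groups compared, and 1600, 3176, 3554 and 4234 without the 2 libraries that stand apart. Leaving out 1 library at a time they were 428 to 1129, 68 to 2757, 76 to 973 and 430 to 1338. The interaction had 122 genes called, and 267 by DESeq2, 316 with no filter, 81 with only the groups compared, 511 without the 2 libraries and 50 to 346 without 1 library. JQ1-FCPF with sgRNA against the control had 1119, then 543 with only the groups compared, 1745 without the 2 libraries and 542 to 1201 without 1 library. JQ1 with sgRNA against the control had 2211, then 3582 without the 2 libraries and 726 to 1858 without 1 library. Between the compounds with sgRNA there were 822 with no filter. The sgRNA under JQ1 had 2, then 6 by DESeq2, 80 with no filter, 0 with only the groups compared, 9 without the 2 libraries and 0 to 3 without 1 library. JQ1-FCPF without sgRNA against the control had 1, then 3 by DESeq2, 2 with only the groups compared and 4 without the 2 libraries. MYCL, at 59 to 240 counts per library, had the widest intervals of the 8 members.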

Other observations

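Of 16 germ line genes that MGA and PRC1.6 are known to repress in mouse embryonic stem cells, 5 passed the filter on low counts. Of these edgeR called 0 in any of the 9 comparisons, with 0 to 2 at an unadjusted p under 0.05 in each. With sgRNA under JQ1-FCPF that number was 0, beside 21.8% of all genes. With JQ1-FCPF without sgRNA against the control it was 1, beside 1.84%. Against the control, their median log2 change was 0.29 with JQ1-FCPF and sgRNA and 0.03 with JQ1-FCPF without sgRNA. It was 0.48 with JQ1 and sgRNA and 0.40 with JQ1 without sgRNA. The medians for all genes were 0.01, 0, 0.01 and 0 in that order. For JQ1-FCPF against JQ1, the median of the 5 was -0.19 with sgRNA and -0.37 without it, beside -0.01 and 0 for all genes.

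Of the 10 erythroid markers, 4 fell and 0 rose with sgRNA under JQ1-FCPF, namely LMO2, NFE2, KLF1 and TAL1, transcription factors of red cell development, beside 4.2% of all genes called lower. The call of TAL1 was lost without JQ1-FCPF with sgRNA replicate 1 (edgeR adjusted p = 0.0638) and with only the groups compared (0.0783). COL1A1, the fibroblast marker that passed the filter, stood at 4.86 CPM with JQ1-FCPF and sgRNA, against 1.96 CPM with JQ1-FCPF without sgRNA (edgeR adjusted p = 0.00165), while the other 4 fibroblast markers stayed at or under 0.44 CPM in every library.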
